A study of Mus musculus with 1699 samples.

Results

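Neurexins and the proteins that bind them outside the cell were followed in single GFP-sorted cells of the mouse ventral midbrain. The genes were given as a list of 9, out of 39468 entries in the deposited tables: the neurexins Nrxn2 and Nrxn3, the neurexophilins Nxph1, Nxph3 and Nxph4, the carbonic anhydrase-related genes Car10 and Car11, and the C1q-like genes C1ql1 and C1ql3. Smart-seq2 libraries, 1 cell each, came from Pitx3eGFP/wt mice, heterozygous for Pitx3tm1Mli (a knock-in of eGFP at Pitx3, a transcription factor gene of midbrain dopamine neurons), on embryonic days E13.5, E15.5 and E18.5 and on postnatal days P1, P7 and P90. Mice homozygous for the allele, Pitx3eGFP/eGFP, gave cells on E13.5 and P1. Cells of both genotypes thus carried eGFP, which set the sort gate, and no sample without the allele was among them. Animals of both sexes were used, several per stage according to the methods, but no label ties a cell to an animal, so each age and genotype is 1 sample. No test was therefore made between groups, and each interval covers counting error only. Reporter eGFP had a mean RPKM of 16.3 at P90 and was detected there in 51.1% of cells, and Slc6a3 exceeded an RPKM of 150 in at most 42.6% of the cells of any group.

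Neurexins are presynaptic adhesion proteins that bind neuroligins, LRRTMs and other partners across the synaptic cleft. Neurexophilins are secreted glycoproteins that bind the extracellular part of alpha-neurexins, and the proteins of Car10 and Car11 are relatives of carbonic anhydrases without enzymatic activity that bind neurexins on the surface of the same cell. C1q-like proteins are secreted ligands of the adhesion receptor Bai3, and some of them also bind neurexins.

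After filtering, 1178 Pitx3eGFP/wt cells were kept, of which 11.9%, 11.97% and 15.96% came from the embryonic ages and 24.4%, 8.23% and 27.6% from the postnatal ages, the smallest group being P7 with 97 cells. Of the 353 Pitx3eGFP/eGFP cells, 50.7% were of E13.5 and the rest of P1. The median number of reads on genes per cell was between 1137282 (E18.5) and 2357898 (E13.5) in Pitx3eGFP/wt cells, and 753256 (E13.5) and 1347522 (P1) in Pitx3eGFP/eGFP cells. Levels are in RPKM, reads per kilobase of gene scaled to the total reads of the cell, and a gene was counted as detected in a cell at an RPKM over 10. Values in parentheses after a share or a difference of shares are 95% intervals, exact (Clopper-Pearson) for shares and by the Newcombe method for differences in percentage points. Tissue was dissociated in 1 way up to E18.5, in another at P1 and P7 and in yet another at P90, and labelled plates hold a single age each. Among Pitx3eGFP/wt cells, spike-in RNA was added at E18.5 and P90 and to 32.8% of P1 cells, but not at E13.5, E15.5 or P7. All Pitx3eGFP/eGFP cells received it. Age cannot be told apart from these differences in handling. All cells are labelled neurons, and at least 3 of 4 neuron markers (Snap25, Tubb3, Stmn2, Syt1) were detected in 90%, 89.4%, 99.5%, 90.9%, 83.5% and 100% of Pitx3eGFP/wt cells in order of age. At P1 and P7, 5.92% and 11.3% had at least 3 of 4 astrocyte markers (Aqp4, Slc1a3, Gfap, Aldh1l1).

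Cells were further divided by Slc6a3 (the dopamine transporter) and Gad2 (a glutamate decarboxylase of GABA synthesis), each at an RPKM over 150. The class is a range of a measured level and not a cell type. Of the Pitx3eGFP/wt cells, 57 had a Slc6a3 RPKM between 75 and 150 and 56 between 150 and 300, and for Gad2 these numbers were 31 and 48. At P90 the division gave 68 Slc6a3-high cells, 78 Gad2-high cells and left 54.2% of the cells with neither, and 3 cells with both were left out. The paper found its Slc6a3-low subgroups to be a small minority in tissue sections but the majority of its adult sequenced cells. It holds loss of long-projecting neurons in dissociation and sorting to be the most likely reason. Shares over all P90 cells are thus shares of sorted cells and not of the tissue. The dopamine markers Th, Ddc, Slc18a2 and Nr4a2 had a median summed RPKM of 8331 in Slc6a3-high cells, 1052 in Gad2-high cells and 426 in cells with neither. Slc17a6, the vesicular glutamate transporter VGLUT2, had median RPKMs of 17.1, 157.4 and 284.6. The GABA markers Gad1 and Slc32a1 together were at a median of 10.5 in Gad2-high cells and of 0 in Slc6a3-high cells and cells with neither. As this level is low, the Gad2-high class is not named as GABA neurons here. The paper reports Slc32a1 in Gad2 cells also by in situ hybridization and proposes that they might use GABA.

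The genes lie on 7 chromosomes of GRCm38 and are all annotated as protein coding. The neurexin genes are Nrxn2 (ENSMUSG00000033768, chromosome 19, 6418731 to 6544169, plus strand) and Nrxn3 (ENSMUSG00000066392, chromosome 12, 88722876 to 90334935, plus strand). The neurexophilins are Nxph1 (ENSMUSG00000046178, chromosome 6, 8948431 to 9249032, plus strand), Nxph3 (ENSMUSG00000046719, chromosome 11, 95509845 to 95514570, minus strand) and Nxph4 (ENSMUSG00000040258, chromosome 10, 127525473 to 127534559, minus strand). The carbonic anhydrase-related genes are Car10 (ENSMUSG00000056158, chromosome 11, 93098028 to 93601749, plus strand) and Car11 (ENSMUSG00000003273, chromosome 7, 45699843 to 45704682, plus strand), and the C1q-like genes are C1ql1 (ENSMUSG00000045532, chromosome 11, 102939264 to 102946688, minus strand) and C1ql3 (ENSMUSG00000049630, chromosome 2, 13003457 to 13011806, minus strand). Smart-seq2 does not keep the strand, and exons of Nrxn2 share 682 bases with Slc22a12 on the other strand, those of Nrxn3 share 439 bases with Gm37980 and those of C1ql3 share 1547 bases with Gm37811. 

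Nxph4 and C1ql1, whose levels differed most between the classes, are the members for which in situ sequencing probes were designed. The study used Nxph4 to classify these same cells, so its probes are no separate evidence. It left Nxph4 out of its in situ classification because the signal was overrepresented in most cells. Shown are the coding targets of both genes, 5′ to 3′ on the transcript strand, with capitals marking the 3′ arm of each target and positions in GRCm38. The sequences come from the probe list of the study and each was found in the annotated transcript (minus strand of the chromosome).
Nxph4, exon 2 of 2, chr10:127526594-127526633: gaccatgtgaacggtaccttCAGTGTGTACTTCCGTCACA
Nxph4, exon 2 of 2, chr10:127526288-127526327: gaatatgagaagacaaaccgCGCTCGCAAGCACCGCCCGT
C1ql1, exon 1 of 2, chr11:102946026-102946065: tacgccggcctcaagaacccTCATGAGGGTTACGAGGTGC
C1ql1, exon 2 of 2, chr11:102939806-102939845: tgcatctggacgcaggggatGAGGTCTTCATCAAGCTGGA

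The question of how the 9 genes vary with age was addressed in Pitx3eGFP/wt cells. Between E13.5 and P90, the mean RPKM of Car10, C1ql1, Car11 and Nxph1 was at least 2-fold higher at P90, that of Nxph3 was 2.35-fold lower, and C1ql3 went from no read to a low level. Counting C1ql3, which gives no fold, 6 of the 9 genes were thus at least 2-fold apart, against 49.8% of the 15548 entries with a mean RPKM of at least 1 in either group. The median difference in log2(mean RPKM + 1) was 1.16 over the members and -0.07 over all those entries. The count over the members lies within 2 genes of that background. Both neurexins and Nxph4 differed by less than 2-fold between these ages.

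Nrxn2 was detected in 60.7%, 60.3%, 86.7%, 71.8%, 70.1% and 72% of cells in order of age. Its mean RPKM was 30.7, 29.1, 49.98, 46.2, 43.9 and 26.8 in order of age, so the level was highest from E18.5 to P7. The share at E18.5 exceeded that at E15.5 by 26.4 points (16.9 to 35.6) and that at P1, over all cells, was lower by a difference of -14.9 points (-21.8 to -7.49). Spike-in RNA was added to all E18.5 cells, to no E15.5 cell and to only some P1 cells. At P1, Nrxn2 was detected in 85.1% of cells with spike-in, close to the E18.5 share, and in 65.3% of those without. The part of spike-in in both steps was not tested. P1, P7 and P90 had similar shares, with intervals of 66.2 to 76.9, 59.96 to 78.98 and 66.8 to 76.8. Nrxn3 was detected in 72.9%, 60.99%, 80.3%, 70.4%, 68.04% and 79.1% of cells in order of age. Its mean RPKM ranged from 61.1 at E15.5 to 87.2 at E13.5, which makes it the steadier of the pair. Single cells spread much more than the stages: at P90 the RPKM of Nrxn3 ran from 0 through a median of 53.3 to 622.

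Among the neurexophilins, Nxph4 had the highest mean RPKM at every stage, 170.7, 103.4, 63.3, 82.1, 62.3 and 200.6 in order of age. It was detected in 45.7%, 27.7%, 26.1%, 29.6%, 30.9% and 60.9% of cells in order of age. Nxph4 was thus lower between E15.5 and P7 than at E13.5 or P90, with a step of -18.1 points (-28.7 to -6.79) from E13.5 to E15.5 and of 30 points (18.8 to 39.8) from P7 to P90. From E15.5 to P7 the shares overlapped within their intervals. The distribution was split: the median RPKM was 0 at P7, while the highest cell had 694. Nxph1 was detected in 10.1 to 14.3% of cells from E13.5 to P7 and in 33.8% (28.7 to 39.3) at P90. From E13.5 to P90 its mean RPKM went from 10.2 to 24.1, which is 2.36-fold. Nxph3 had a mean RPKM of 24.4, 15.4, 8.62, 8.87, 8.38 and 10.4 in order of age. Its share of cells differed less, from 40% (31.8 to 48.6) to 33.5% (28.4 to 38.96), and the direction of that difference depended on the limit, since 45.7% of E13.5 cells and 56.3% of P90 cells exceeded an RPKM of 1.

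The carbonic anhydrase-related genes had their step between E15.5 and E18.5. Car10 was detected in 2 of 140 cells at E13.5 and in 1 cell at E15.5 (0.709%), but in 20.7% of E18.5 cells and in 19.5%, 22.7% and 36% of cells on the postnatal days. The difference between E18.5 and E15.5 was 20.04 points (13.9 to 26.4). Its mean RPKM of 26.1 at P90 was 15.4-fold that at E13.5 (1.70), a value to which 1 cell with an RPKM of 179.3 contributed most. Car11 was more widespread, in 16.4%, 16.3%, 64.4%, 58.9%, 59.8% and 66.8% of cells in order of age. The step of Car11 from E15.5 to E18.5 was 48.05 points (38.1 to 56.4), and the later stages overlapped within their intervals. The difference of Car11 between P90 and P7 was 6.98 points (-3.64 to 18.1), and -3.89 points (-14.9 to 9.05) with cells of other types left out. E15.5 and E18.5 were dissociated with the same kit according to the methods, but only the E18.5 cells received spike-in RNA, whose part was not tested. After thinning each cell to 100000 reads the shares of Car11 were 15.6% and 64.4% at these ages, and those of Car10 0.709% and 20.2%.

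Both C1q-like genes had their highest share at P90. C1ql1 was detected in 12.1%, 14.9%, 22.3%, 19.5%, 25.8% and 60.3% of cells in order of age. The mean RPKM of C1ql1 at P90, 109.3, was 11.1-fold that at E13.5, 9.82, and the largest step lay between P7 and P90, with 34.5 points (23.6 to 43.8). C1ql3 had no read in any of the 140 cells at E13.5, which allows a share of up to 2.14%. It was detected in 5.85% of E18.5 cells and, on the postnatal days, in 6.97%, 6.19% and 12.3% (8.94 to 16.4 at P90), always at a low mean, 4.39 RPKM at P90. The interval of its difference between P90 and P7 included 0 (-1.24 to 11.3 points). The annotated 3′ end of C1ql3 meets that of Pter, which lies on the other strand, and the annotated genes do not overlap. Unstranded reads that run past that end cannot be assigned by strand. At P90, 62 of the 91 cells with C1ql3 reads also had Pter reads (68.1%), 74.7% of the 83 cells with Pter reads had C1ql3 reads, and 5 of the 40 cells with C1ql3 detected had none. The part of Pter reads in the C1ql3 values was not tested.

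**Figure D1:**
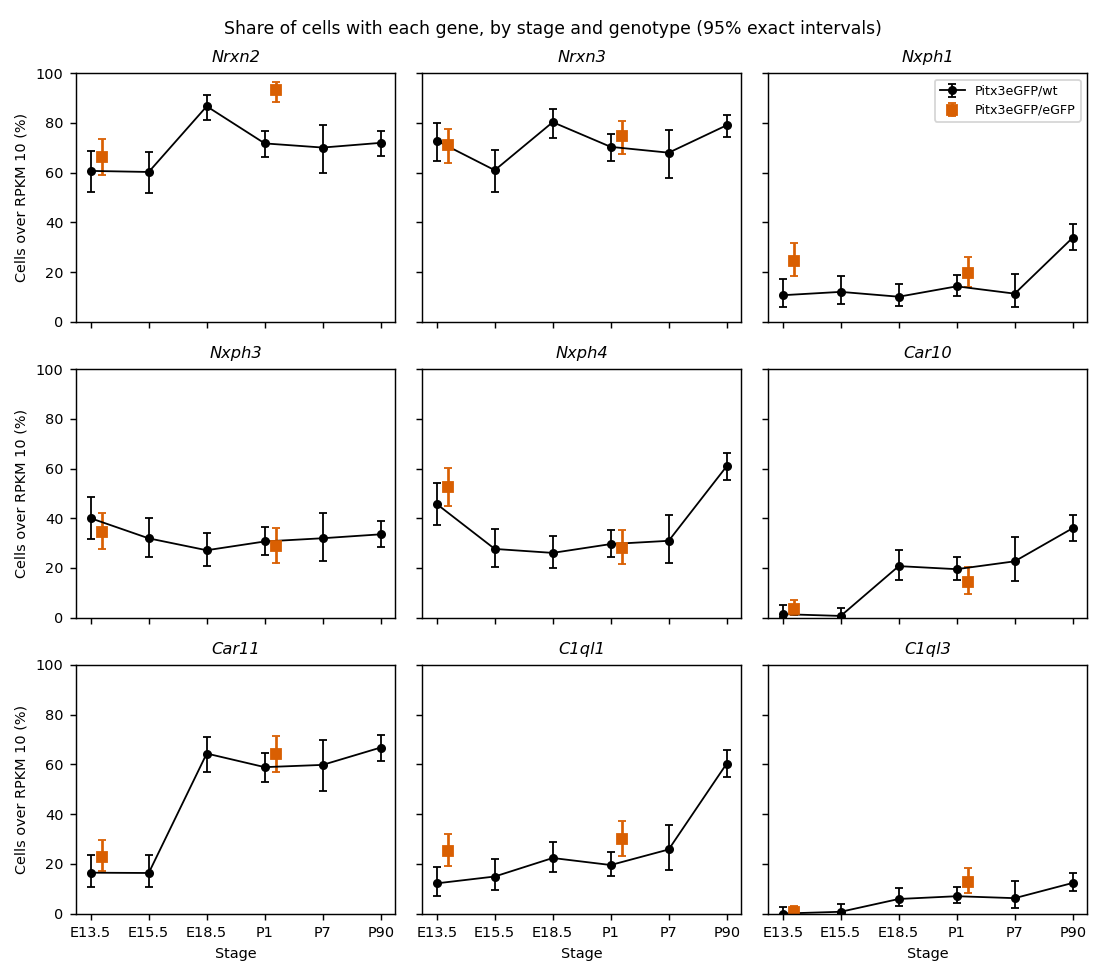
Share of cells with an RPKM over 10 (percent, y axis) by stage (x axis) for each gene, with 95% exact Clopper-Pearson intervals. Black circles joined by lines are Pitx3eGFP/wt cells and orange squares, set slightly to the right, are Pitx3eGFP/eGFP cells at E13.5 and P1. Car11 steps from 16.3% to 64.4% between E15.5 and E18.5, whereas Nxph4 and C1ql1 reach 60.9% and 60.3% at P90.

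More ligand genes were detected per cell at P90 than earlier. The median cell had 1 of the 7 genes other than the neurexins detected at E13.5, 2 at P1 and 3 at P90. Cells with none of them made up 27.1% at E13.5, 35.5% at E15.5 and 7.69% at P90. Detection over all entries was also highest at P90. The median cell had reads in 27.8% of entries there, against 21.6% at E13.5, 20.4% at E15.5 and 23.6% at P1. At P90, 26.2% of cells had no neurexophilin, 31.7% had 1, 29.8% had 2 and 12.3% had 3. Both neurexins were detected together in 47.1% of E13.5 cells, 70.2% of E18.5 cells and 58.2% of P90 cells.

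The classes at P90 separated the genes into 3 patterns. Nxph4, C1ql1, Nxph1 and Car10 had their highest mean in cells with neither Slc6a3 nor Gad2 at an RPKM over 150, Nrxn3 had its lowest there, and C1ql3 had its highest in Gad2-high cells. Nrxn2, Nxph3 and Car11 stayed within 2-fold in all 3 comparisons. At least 2-fold apart were 5 of 9 genes between Slc6a3-high cells and cells with neither, against 22.3% of all entries, 6 of 9 between Gad2-high cells and cells with neither, against 15.0%, and 4 of 9 between Slc6a3-high and Gad2-high cells, against 24.1%. The genes were chosen with earlier results of these data known, and the study used Nxph4 to classify these same cells. An excess over all entries, here or at P1, is therefore no separate evidence about the genes.

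Nxph4, a neurexophilin gene, had a mean RPKM of 10.2 in Slc6a3-high cells, 105.8 in Gad2-high cells and 318.9 in cells with neither, with medians of 0.447, 1.19 and 321.2. It was detected in 13.2% (6.23 to 23.6), 37.2% (26.5 to 48.9) and 90.3% (84.99 to 94.3) of these cells. The mean was 31.1-fold lower in Slc6a3-high cells than in cells with neither, and the share differed by -77.1 points (-84.2 to -65.8). The highest Slc6a3-high cell, at 154.8, stayed below the median of cells with neither. Gad2-high cells ran from 0 to 961 and cells with neither from 0 to 879, so the groups overlapped at their ends. Within the cells with neither, those with a Th RPKM over 150 (65 cells) had Nxph4 in 73.8%, and those at or below it in 100%, a division added after the values had been seen.

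C1ql1 followed the same order. Its mean RPKM was 1.28, 41.5 and 182.7 and its median 0, 1.06 and 159.7 in Slc6a3-high cells, Gad2-high cells and cells with neither. Detected in 3 of 68 Slc6a3-high cells, 43.6% of Gad2-high cells (32.4 to 55.3) and 89.8% of cells with neither (84.3 to 93.8), it gave the largest difference of any member, -85.4 points (-90.0 to -75.9) between Slc6a3-high cells and cells with neither. Between Slc6a3-high and Gad2-high cells the difference was -39.2 points (-50.6 to -26.2). Nxph1 was detected in 11.8%, 11.5% and 52.3% (44.6 to 59.8), so that it set cells with neither apart but not Slc6a3-high from Gad2-high cells, where the difference was 0.226 points (-10.4 to 11.4). Its mean RPKM was 11.4, 9.09 and 36.

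Car10 was least frequent in Gad2-high cells. Its mean RPKM was 14.9 in Slc6a3-high cells, 2.04 in Gad2-high cells and 41.4 in cells with neither. It was detected in 26.5% (16.5 to 38.6), 3.85% (0.800 to 10.8) and 53.98% (46.3 to 61.5). The 3 intervals do not overlap. Car11, the other carbonic anhydrase-related gene, showed no such pattern, with 70.6%, 69.2% and 64.2%, and the difference between Slc6a3-high and Gad2-high cells was 1.36 points (-13.5 to 15.8). Within cells with neither, Car10 was detected in 26.2% of those with Th over 150 and in 70.3% of the others, and Nrxn3 in 86.2% and 52.3%.

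Nrxn3 was lowest in cells with neither. Its mean RPKM was 107.6 in Slc6a3-high cells, 114.2 in Gad2-high cells and 39.6 in cells with neither, with medians of 85.2, 97.4 and 22.2. It was detected in 92.6%, 98.7% and 64.8% (57.2 to 71.8) of these cells. The share in Gad2-high cells exceeded that in cells with neither by 33.9 points (25.2 to 41.3), while Slc6a3-high and Gad2-high cells differed by -6.07 points (-14.9 to 0.935). Nrxn2 had mean RPKMs of 29.1, 23.02 and 27.7 and was detected in 80.9%, 61.5% and 72.7%. Its share in Slc6a3-high cells exceeded that in Gad2-high cells by 19.3 points (4.55 to 32.8), but with cells over an RPKM of 50 counted the difference turned to -0.679 points. C1ql3 was detected in 5.88%, 29.5% (19.7 to 40.9) and 6.82%, and its mean in Gad2-high cells, 12.1, was 6.96-fold that in cells with neither. Nxph3 was detected in 30.9%, 25.6% and 37.5%, with overlapping intervals.

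Counted per cell, 4.55% of P90 cells with neither Slc6a3 nor Gad2 over 150 had no neurexophilin detected, against 54.4% of Slc6a3-high and 51.3% of Gad2-high cells. At least 3 of the 7 ligand genes were detected in 86.4%, 25% and 42.3% of these classes. Cells with neither thus had the most ligand genes detected per cell and the lowest mean of Nrxn3. The share of all entries detected is not given by class here, so these counts have no background beside them.

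**Figure D2:**
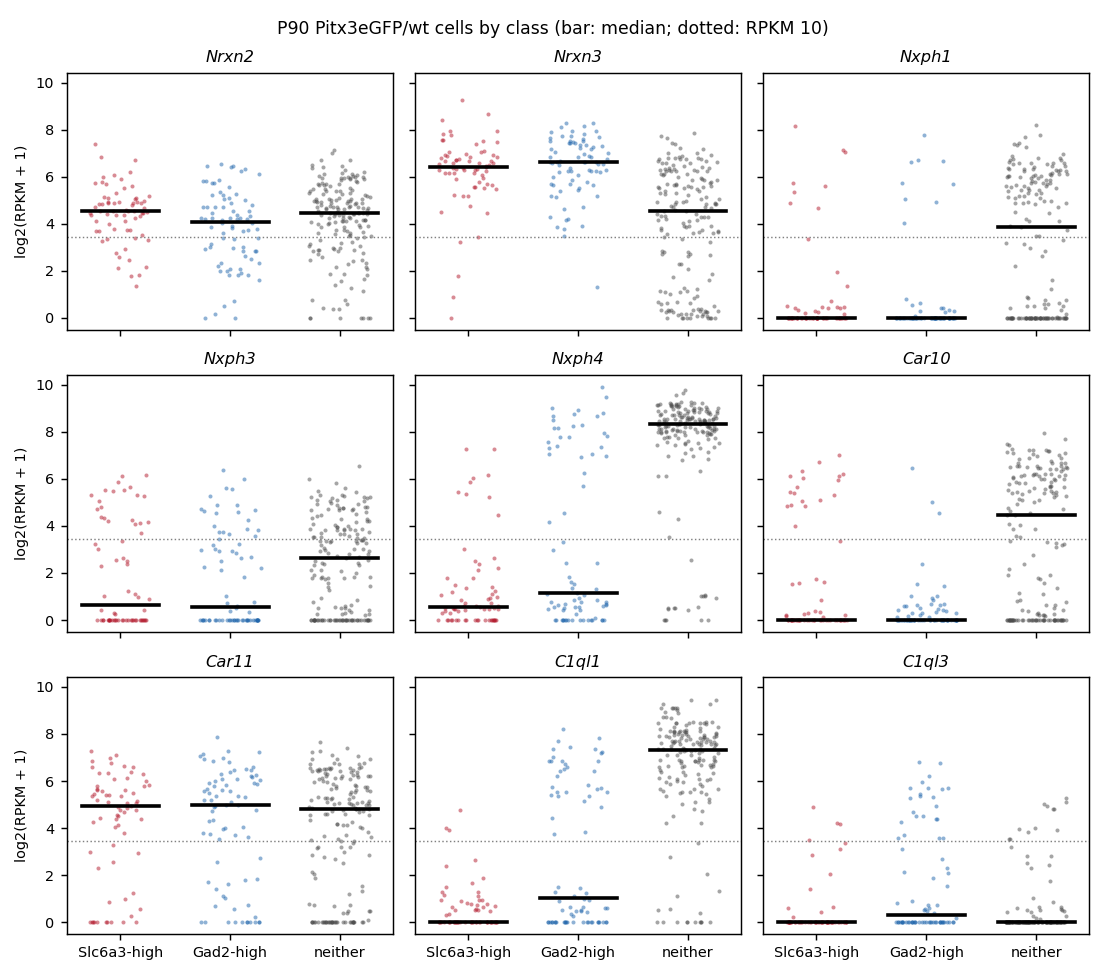
Each point is 1 P90 Pitx3eGFP/wt cell, with log2(RPKM + 1) on the y axis and the class by Slc6a3 or Gad2 RPKM over 150 on the x axis; the black bar is the median and the dotted line an RPKM of 10. Nxph4 and C1ql1 have their highest medians in cells with neither gene (321.2 and 159.7 RPKM), where single cells reach down to 0, and Nrxn3 has its lowest median there (22.2 RPKM).

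Plates numbered 1, 2, 4 and 5 made up the P90 cells, and each held Slc6a3-high cells, Gad2-high cells and cells with neither. The mean RPKM of Nxph4 in Slc6a3-high cells was 7.01, 6.195, 13.9 and 24.1 on these plates, and in cells with neither 355.2, 294.3, 299.3 and 353, so the order was the same on each. C1ql1 was detected in Slc6a3-high cells of plate 1 alone, and its mean in cells with neither was between 126.1 and 266.1. Gad2-high cells varied more, with Nxph4 means of 179.5, 174.8, 28.3 and 42.4, and C1ql1 means of 68.6, 60.4, 24.5 and 11.02. Car10 in cells with neither was at 25.5 and 24.7 on plates 1 and 2 and at 57.97 and 73.3 on plates 4 and 5. Its order over the classes held on all plates, although on plate 1 Slc6a3-high cells (19.8) lay close to cells with neither. C1ql3 was highest in Gad2-high cells on each plate, at 16.98, 4.45, 19.6 and 6.11 RPKM. Nrxn3 was lowest in cells with neither on each plate, with a narrower gap on plate 5 (65.03, 67.6 and 50.3 in Slc6a3-high, Gad2-high and neither).

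**Figure D3:**
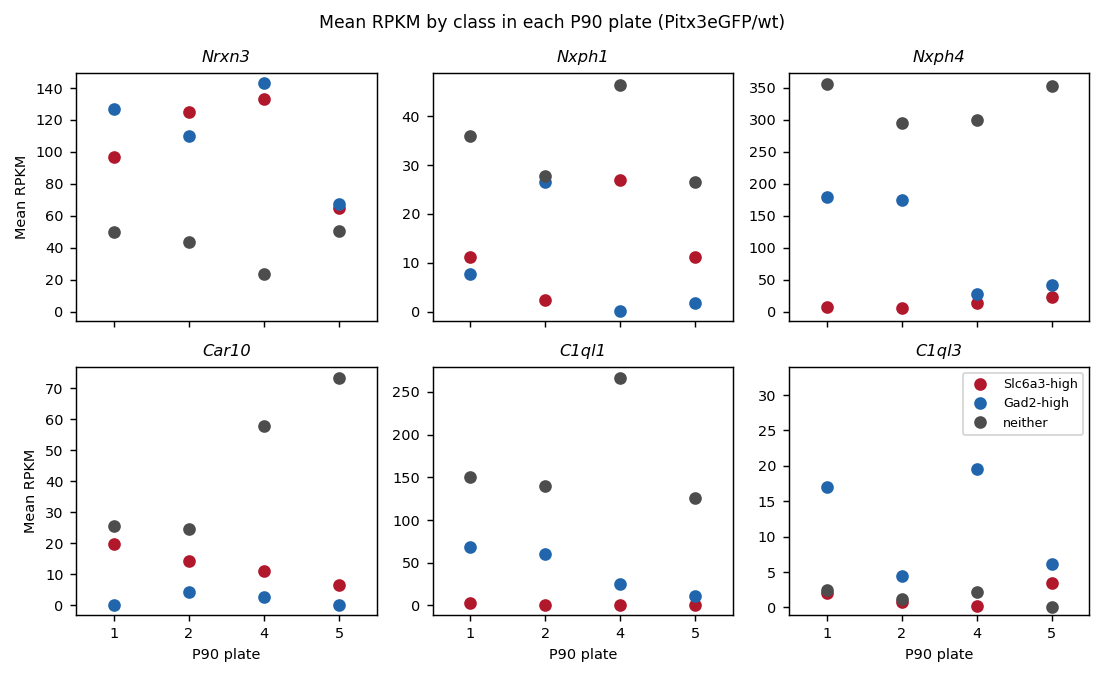
Mean RPKM (y axis) of 6 genes in each P90 plate (x axis) for Slc6a3-high (red), Gad2-high (blue) and neither (grey) cells. For Nxph4 the grey points, 294.3 to 355.2, lie above the red points, 6.195 to 24.1, on every plate.

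At earlier ages the classes already differed for some members. For Nxph4, Slc6a3-high cells minus cells with neither gave -24.4 points (-41.0 to -2.64), -29.1 points (-40.5 to -13.2) and -29.0 points (-41.1 to -15.5) on the embryonic days in order, and -24.7 points (-34.7 to -13.5) and -20.9 points (-37.0 to -0.726) on P1 and P7. The gap at P90 was wider, as Nxph4 in cells with neither stood at 37.04% at P7 and 90.3% at P90, while Slc6a3-high cells stood at 16.1% and 13.2%. C1ql1 was in 10% of Slc6a3-high cells and 39.02% of cells with neither at E18.5, 3.74% and 31.5% at P1, and 19.4% and 25.9% at P7. The interval of the difference at P7 included 0 (-23.1 to 12.99 points). At P7, 16.7% of cells with neither had at least 3 astrocyte markers, against 3.23% of Slc6a3-high cells, and 74.1% had at least 3 neuron markers. With cells of other types left out, the difference at P7 was -31.5 points (-50.6 to -7.29) for Nxph4, with 26 Slc6a3-high cells and 32 cells with neither. Nrxn3 was more frequent in Slc6a3-high cells than in cells with neither, by 35.9 points (20.1 to 45.5), 27.9 points (9.61 to 42.02) and 13.02 points (0.0396 to 25.5) on the embryonic days in order, and by 32.8 points (21.6 to 42.6) and 28.3 points (7.65 to 44.3) on P1 and P7. With cells of other types left out, the difference of Nrxn3 was 12.2 points (-1.05 to 24.96) at E18.5 and 18.99 points (-3.91 to 38.6) at P7, where the intervals included 0. C1ql3 was detected in 30.8% of Gad2-high cells at E18.5 against 1.22% of cells with neither, a difference of 29.5 points (14.3 to 48.8). Car10 was in 25% of Slc6a3-high cells at E18.5 and in 0 of 26 Gad2-high cells, which allows a share of up to 11.5%.

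At P1, where 37.3% of cells were Slc6a3-high, 11.8% Gad2-high and 49.8% neither, 5 of 9 genes were at least 2-fold apart between Slc6a3-high cells and cells with neither, against 23.6% of entries, and 6 of 9 between Gad2-high cells and cells with neither, against 31.5%. Nxph4 was 13.9-fold and C1ql1 18.9-fold lower by mean RPKM in Slc6a3-high cells than in cells with neither. Car10 had the opposite order to P90, with 28.04% in Slc6a3-high cells and 17.5% in cells with neither. With spike-in these shares were 38.5% of 52 and 20% of 30 cells. Over all classes Car10 was in 28.7% of P1 cells with and 15.0% of those without spike-in, whose part was not tested. The same class difference was 1.83 points (-11.3 to 14.9) at E18.5 and -3.35 points (-20.5 to 16.5) at P7. Markers of another cell type moved with the class at P1: 11.9% of cells with neither had at least 3 astrocyte markers, against 0% of Slc6a3-high cells, and the summed RPKM of these 4 markers ranged up to 3622 against 143.2. At P90 no cell had 3 of these markers and the summed RPKM reached 91.8 in cells with neither. An alternative added after the data had been seen left out cells with few neuron markers or several glial, microglial or endothelial ones. They were 10.8% of all kept cells of both genotypes, among them 48 Pitx3eGFP/wt cells at P1 and 5 at P90. Without them, the differences in share between the classes at P1 and at P90 stayed within their intervals.

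**Figure D4:**
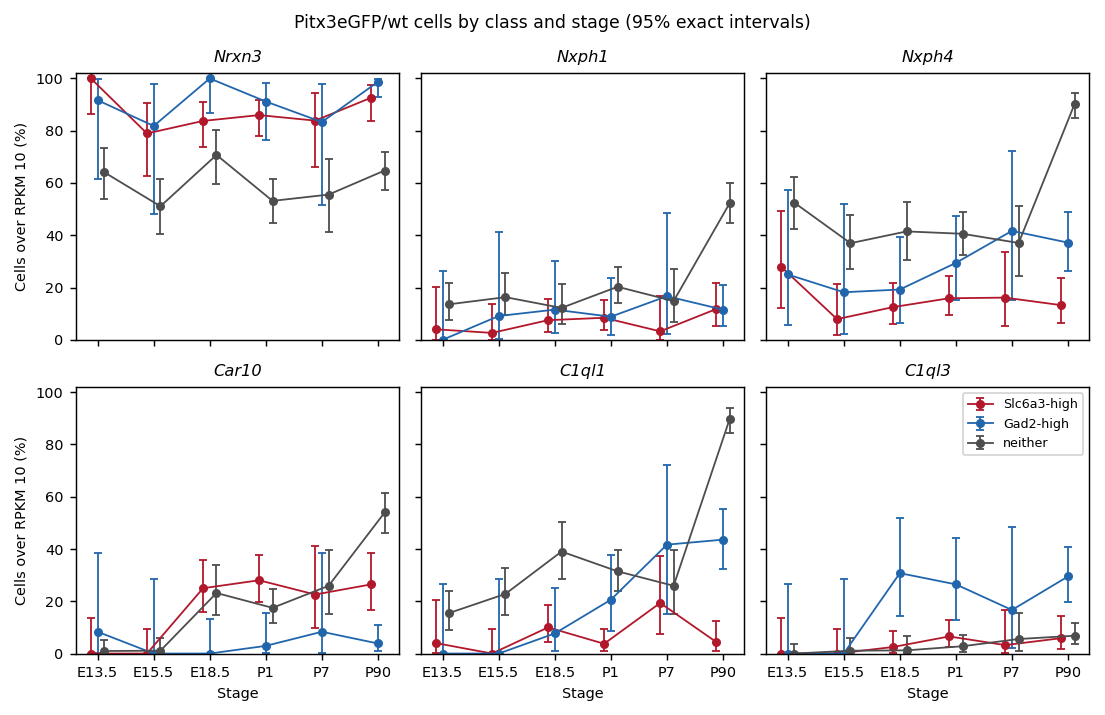
Share of Pitx3eGFP/wt cells with an RPKM over 10 (percent, y axis) by stage (x axis) in Slc6a3-high (red), Gad2-high (blue) and neither (grey) cells, with 95% exact intervals. The grey points of Nxph4 and C1ql1 lie at 37.04% and 25.9% at P7 and at 90.3% and 89.8% at P90, whereas C1ql3 is most frequent in the blue class from E18.5 on.

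In single P90 cells, Nxph4 and C1ql1 were found together. C1ql1 was detected in 90.9% of the cells with Nxph4 and in 12.6% of those without, and after thinning to 100000 reads in 89.4% and 12.7%. Nxph1 was detected in 52.02% of cells with Nxph4 and in 5.51% of those without, and 93.6% of cells with Nxph1 had Nxph4. As a description across all kept P90 cells, which share plates and differ in depth, the Spearman rho of Nxph4 and C1ql1 was 0.73, that of Nxph4 and Nxph1 0.45 and that of Car10 and C1ql1 0.51. Nrxn3 was negatively related to C1ql1 (-0.50), Nxph4 (-0.40) and Car10 (-0.39). Restricted to cells with neither Slc6a3 nor Gad2 over 150, the values were 0.28 for Nxph4 with C1ql1, 0.55 for Car10 with C1ql1 and 0.17 for Nxph4 with Nxph1. For Nrxn3 they were -0.42 with Car10, -0.36 with C1ql1 and 0.00 with Nxph4. At P1 the values over all kept Pitx3eGFP/wt cells were 0.34 for Nxph4 with C1ql1, 0.13 for Nxph4 with Nxph1, -0.03 for Car10 with C1ql1, 0.00 for Nrxn3 with Car10, -0.13 for Nrxn3 with C1ql1 and -0.21 for Nrxn3 with Nxph4. At P90, Car10 was detected in 25.7% of cells with Nrxn3 and 75% of cells without. Nrxn2 and Car11 had a rho between -0.06 and 0.11 with the other members over all kept P90 cells.

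**Figure D5:**
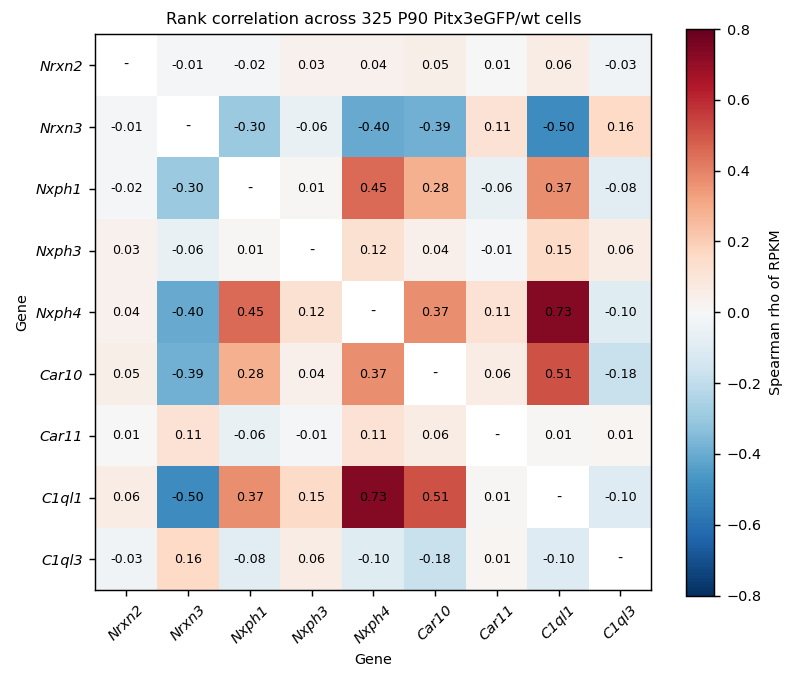
Spearman rho of RPKM between each pair of genes (rows and columns) across all kept P90 Pitx3eGFP/wt cells, from blue (negative) to red (positive). The highest value is 0.73 for Nxph4 with C1ql1 and the lowest -0.50 for Nrxn3 with C1ql1.

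Of the 10950 entries over an RPKM of 10 in at least 10% of P90 cells, those ranked nearest to Nxph4 by rho outside the gene lists included Nfia (0.67) and Nfix (0.61), which encode nuclear factor I transcription factors. The entries nearest to C1ql1 included Tcf4 (0.66) and Nfia (0.64), and those nearest to Nxph1 included Nfia (0.44) and Nfix (0.39). Nrxn3 was nearest to Fgf13 (0.40), Chrnb3 (0.40) and Chrna6 (0.40), of which Chrnb3 and Chrna6 encode nicotinic receptor subunits. Car10 was nearest to Necab2 (0.49), A2ml1 (0.48) and Penk (0.46), and Penk encodes proenkephalin. C1ql3 was nearest to Pter (0.69), its neighbour, then Zeb2 (0.36) and Plcl1 (0.32). For Nrxn2, Nxph3 and Car11 the nearest entries had lower values: Rhoc (0.22), Syt17 (0.29) and Gpsm1 (0.26).

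Other genes of the neurexin pathway were read from a list of 32, chosen with earlier results of these data known. Of the 26 with a mean RPKM of at least 1 at E13.5 or P90, 10 were at least 2-fold higher at P90 and 5 at least 2-fold lower, against the 49.8% of all entries in either direction. Clstn3, a calsyntenin that binds neurexins, had mean RPKMs of 51.9 and 131.7 at these ages. The secreted Fam19a1 and Fam19a2 stood at 2.86 and 1.97 at E13.5 and at 59.04 and 27.9 at P90. Among postsynaptic partners, Nlgn1 (neuroligin 1) was 5.02-fold higher at P90, whereas Nlgn2 and Nlgn3 were 1.38-fold and 1.28-fold lower, and Dag1 (dystroglycan) and Lphn2 (a latrophilin) were 5.72-fold and 4.15-fold lower. Bai3, the receptor of C1q-like proteins, had a mean RPKM of 39.7 and 23.9. Across the P90 classes Bai3 was at 22.3 in Slc6a3-high cells, 42.6 in Gad2-high cells and 16.4 in cells with neither. Its highest mean thus lay in the class with the highest mean of C1ql3, and its lowest in that with the highest mean of C1ql1.

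Between Slc6a3-high cells and cells with neither at P90, 3 of 27 pathway genes were at least 2-fold higher and 7 at least 2-fold lower in Slc6a3-high cells, against 22.3% of all entries in either direction. Higher were Apba1 (93.2 against 18.2 RPKM), which encodes the adaptor Mint1, Cbln4 (92.5 against 44.3), a cerebellin, and Nxph2 (3.07 against 0.562), the remaining neurexophilin. Among the lower were Fam19a2 (21.1-fold), Fam19a1 (5.37-fold), Cbln2, Lrrtm1, Grid1 and Mdga2. Against Gad2-high cells, Slc6a3-high cells had 3 of 28 pathway genes at least 2-fold higher and 10 at least 2-fold lower, against 24.1% of all entries. Gad2-high cells against cells with neither had 5 of 27 higher and 3 lower, against 15.0%. The neuroligins Nlgn1, Nlgn2 and Nlgn3 stayed within 2-fold in all P90 class comparisons.

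The comparison of genotypes asks which of the genes differ when Pitx3 is lost. Pitx3 itself had a mean RPKM of 416 in Pitx3eGFP/wt and 18.8 in Pitx3eGFP/eGFP cells at E13.5, and 98.8 and 7.90 at P1, while eGFP stood at 323.02 and 726 at E13.5 and at 112.2 and 189.8 at P1. Slc6a3-high cells made up 17.9% of Pitx3eGFP/wt and 0.559% of Pitx3eGFP/eGFP cells at E13.5, and 37.3% and 9.20% at P1, so the class shares differed too. As the class is a measured level, these shares cannot tell fewer such cells from less Slc6a3 per cell. Comparisons of genotypes within a class have the same limit. At E13.5, 3 of 8 members were at least 2-fold apart, against 16.7% of entries, and at P1 0 of 9, against 14.4%. Spike-in RNA was added to all Pitx3eGFP/eGFP cells and to no Pitx3eGFP/wt cell at E13.5, so spike-in and genotype cannot be told apart there. At P1, 32.8% of Pitx3eGFP/wt cells had it (94 cells).

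At E13.5, C1ql1 was detected in 12.1% of Pitx3eGFP/wt cells (7.24 to 18.7) and 25.1% of Pitx3eGFP/eGFP cells (18.97 to 32.2), a difference of 13 points (4.34 to 21.1), with mean RPKMs of 9.82 and 35.9. Nxph1 was in 10.7% and 24.6%, a difference of 13.9 points (5.42 to 21.8), with mean RPKMs of 10.2 and 29.4. Car10 passed the 2-fold limit on few cells, 1.43% and 3.35%. C1ql3 had 23 reads in all Pitx3eGFP/eGFP cells together and none in Pitx3eGFP/wt cells. The shares of Nrxn2, Nrxn3, Nxph3, Nxph4 and Car11 had differences whose intervals included 0. Within cells with neither Slc6a3 nor Gad2 over 150, which made up most cells of both genotypes, the differences were 10.05 points (-0.0916 to 19.1) for C1ql1, whose interval just included 0, and 11.4 points (1.53 to 20.2) for Nxph1. With cells of other types left out, the difference of Nxph1 in that class was 9.47 points (-0.921 to 18.6), whose interval included 0. Nxph3 was lower in Pitx3eGFP/eGFP cells of that class, at -12.5 points (-24.2 to -0.510). Pitx3eGFP/eGFP cells had fewer reads at E13.5, and after thinning the shares of C1ql1 were 11.4% and 23.5%.

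At P1, Nrxn2 was detected in 71.8% of Pitx3eGFP/wt and 93.1% of Pitx3eGFP/eGFP cells (66.2 to 76.9 and 88.3 to 96.4), with mean RPKMs of 46.2 and 73.9. The difference was 21.3 points (14.5 to 27.5) over all cells and 7.997 points (0.480 to 17.04) among cells with spike-in. Nrxn2 was higher by mean RPKM in each class, at 48.8 and 75.95 in Slc6a3-high, 31.1 and 81.8 in Gad2-high and 47.9 and 71.7 in cells with neither (Pitx3eGFP/wt first). Among Pitx3eGFP/wt cells at P1, the share with Nrxn2 was 85.1% with and 65.3% without spike-in, a gap within 1 genotype close to that between genotypes. By level the gap depended on the measure. The mean RPKM of Pitx3eGFP/wt cells was 43.6 with and 47.5 without spike-in, while the median was 30.2 and 21.8. An RPKM of 50 was exceeded in 25.5% of Pitx3eGFP/wt cells with and 27.5% of those without spike-in. In Pitx3eGFP/eGFP cells the median was 58.8, and 61.5% exceeded an RPKM of 50. The part of spike-in in the genotype difference was not tested. C1ql1 was detected in 19.5% and 29.9%, a difference of 10.4 points (2.34 to 18.7) over all cells and of 12.9 points (1.99 to 22.4) among cells with spike-in. Its mean RPKM, however, was 41.2 in Pitx3eGFP/wt cells with spike-in and 37.5 in Pitx3eGFP/eGFP cells. By class, C1ql1 was in 3.74% and 25% of Slc6a3-high cells (4 cells in each genotype), a difference of 21.3 points (5.46 to 45.9), and in 31.5% and 36.2% of cells with neither. In Gad2-high cells C1ql1 was in 20.6% and 6.45%, a difference of -14.1 points (-31.0 to 3.42). Among cells with spike-in it was in 40% and 36.2% of those with neither, a difference of -3.78 points (-23.1 to 13.9), with mean RPKMs of 122.4 and 48.4. At least 3 of 4 microglial markers (Cx3cr1, C1qa, Csf1r, Aif1) were detected in 0.697% of Pitx3eGFP/wt and 4.60% of Pitx3eGFP/eGFP cells at P1, and in 0.699% and 6.30% of those with neither. With cells of other types left out, the genotype differences in share at P1 stayed within their intervals, over all cells and within each class.

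Among P1 cells with spike-in, other members passed the 2-fold limit. Nxph4, C1ql3 and Car10 were at least 2-fold apart by mean RPKM (3 of 9, against 20.7% of entries), with Car10 lower in Pitx3eGFP/eGFP cells by a difference of -14.4 points (-25.2 to -4.23) and Nxph4 at 45.8 in Pitx3eGFP/wt and 92.4 in Pitx3eGFP/eGFP cells. Within classes, Nxph4 did not have this gap: with spike-in its mean RPKM was 122.2 and 124.7 in cells with neither, 6.52 and 2.11 in Slc6a3-high and 27.1 and 6.32 in Gad2-high cells (Pitx3eGFP/wt first), and 43.3% and 33.9% of cells with neither had it. For Car10 with spike-in, the differences were -19.7 points (-37.9 to 7.35) in Slc6a3-high cells, -2.64 points (-31.7 to 13.5) in Gad2-high cells and -4.25 points (-22.4 to 8.55) in cells with neither, and each interval included 0. The class shares differed: of the Pitx3eGFP/wt cells with spike-in, 52 of 94 were Slc6a3-high and 30 had neither, whereas 16 of the Pitx3eGFP/eGFP cells were Slc6a3-high and most had neither. The part of these class shares in the differences was not tested. Over all P1 cells the difference of Car10 was -5.14 points (-11.8 to 2.15). Nrxn3, Nxph1, Nxph3, Nxph4, Car10 and Car11 had differences in share at P1 whose intervals included 0 over all cells. Within classes, Nrxn3 differed by 14.6 points (2.87 to 25.7) in cells with neither, and by 11.05 points (-7.05 to 30.1) with spike-in and 11.7 points (-1.43 to 24.2) with cells of other types left out. Car11 differed by 25.05 points (2.87 to 43.9) in Gad2-high cells, and by 20.2 points (-6.63 to 49.9) with spike-in and 18.6 points (-4.13 to 38.6) after thinning. C1ql3 was detected in 6.97% of Pitx3eGFP/wt and 12.6% of Pitx3eGFP/eGFP cells, a difference of 5.68 points (0.219 to 11.9) over all cells and of 6.26 points (-1.75 to 12.96) among cells with spike-in, where the interval included 0. With cells over an RPKM of 50 counted, the difference over all cells turned to -0.122 points. In cells with neither the difference of C1ql3 was 7.44 points (1.55 to 14.15), and 10.2 points (-1.85 to 16.7) with spike-in and 6.54 points (-0.665 to 14.5) with cells of other types left out.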

How the data were processed

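Single cells were sorted by GFP and made into Smart-seq2 libraries of polyA RNA, 1 cell each. According to the methods and the submitters' processing notes, the authors aligned reads to mm10 with eGFP and spike-in sequences added (STAR), kept reads that mapped to a single place, and computed gene values with rpkmforgenes on Ensembl gene models. Each of the 1699 deposited tables holds read counts per entry (raw counts, not normalized by the authors) and RPKM, which the authors divided by gene length and mappable reads of the cell. The protocol keeps no strand, so overlapping genes on opposite strands cannot be told apart. Each cell has its own file, and no animal is given for it.

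Cells were kept with more than 100000 reads on genes and at least 15% of entries detected (3.4% at P90), out of the 31526 that had reads somewhere in the series. Mapping-rate limits of the study were not used here. Kept cells were clustered (log2(RPKM + 1), 1000 variable genes, 50 components, 15 neighbours, Leiden; leidenalg 0.10.2), and clusters with at least 3 of 8 oligodendrocyte-lineage markers (among them Olig1, Olig2, Sox10, Pdgfra, Mbp, Mog and Mag) over an RPKM of 10 in most cells were left out, which removed 118 oligodendrocyte-like cells and left 1531. No doublet caller was run. Kept cells had between 100007 and 8634201 reads on genes.

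The genes and all gene lists were chosen with earlier results of these data known. Text names are the 9 genes, pathway genes, Slc6a3, Gad2, Pitx3, eGFP, markers and, for each gene, the 3 entries outside the lists with the highest Spearman rho over P90 Pitx3eGFP/wt cells; some of these genes are not reported here. The other marker lists were GABA (Gad1, Slc32a1), microglia (Cx3cr1, C1qa, Csf1r, Aif1) and endothelium (Cldn5, Pecam1, Flt1), and at P90 no cell had 3 microglial or endothelial markers. With 1 sample per group no test was made and no p-value is given. Ratios are of mean RPKM over cells, for entries with a mean RPKM of at least 1 in either group, and 2-fold is a limit of size only. Shares carry exact Clopper-Pearson 95% intervals (scipy 1.17.1) and their differences Newcombe intervals. A share of 0 is given with the limit of 3 cells of the total. For thinning, 100000 reads were drawn from each cell without replacement. Loci come from GENCODE vM21 on GRCm38. Alternatives changed the detection limit, the cell filters, depth, plates, spike-in, the class limits and the measure of change, and 3 of them (other cell types left out, a division by Th and thinned shares by genotype) were added after the data had been seen.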

Additional observations from a re-analysis of the deposited data

Results flagged for a closer look

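Car10 was detected more often in Slc6a3-high cells than in cells with neither Slc6a3 nor Gad2 over 150 at P1, by 10.6 points (0.161 to 21.2), and less often at P90, by a difference of -27.5 points (-39.0 to -13.8). The 2 differences point in opposite directions, and the difference between them was not tested. Cells with neither also differed in the median summed RPKM of the dopamine markers, 1227 at P1 and 426 at P90. At E18.5 and P7 the same difference was 1.83 points (-11.3 to 14.9) and -3.35 points (-20.5 to 16.5), and both intervals included 0. At P1, Car10 was in 28.7% of cells with and 15.0% of those without spike-in, whose part was not tested.

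Among the 28 oligodendrocyte-like Pitx3eGFP/wt cells of P1 that were left out of the comparisons, Nxph1 was detected in 57.1% against 14.3% of the kept cells, a difference of 42.9 points (24.2 to 59.6), with mean RPKMs of 128.9 and 17.4. C1ql3 was detected in 21.4% of these left-out cells and 6.97% of the kept ones, a difference of 14.5 points (2.70 to 32.7). At P7, where 82 such cells were left out, Nxph1 was detected in 10.98% of them and 11.3% of kept cells, and C1ql3 in 3.66% and 6.19%.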

How the results depend on the processing

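Over the differences in share of the 9 genes that were recomputed, 1191 of 1296 values under an alternative stayed within the interval of the reported difference, 3 reversed and the rest moved beyond it. Every alternative that applies was run for P90 against E13.5, genotype and the classes at P90 and P1, but steps between neighbouring ages, classes at other ages and genotype within class were recomputed only with thinning and with cells of other types left out, where both sides kept at least 10 cells. Of differences whose interval excluded 0, those that reversed came from counting cells with an RPKM over 50 in place of 10: -6.24 points for Nrxn2 at P90 against E13.5, -0.122 points for C1ql3 by genotype at P1 and -0.679 points for Nrxn2 in Slc6a3-high against Gad2-high cells at P90. The difference of Nxph3 between P90 and E13.5, whose interval included 0, also changed sign when cells over an RPKM of 1 were counted. Thinning, using reads alone, keeping or removing oligodendrocyte-like cells per cell and class limits of 75 or 300 moved none of the differences they were run for, and leaving out cells of other types moved only Car11 between P90 and P7. Single P90 plates moved 13 to 22 of 36 differences.

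The number of genes at least 2-fold apart went from 3 to 1 for genotype at E13.5 with a difference of mean log2(RPKM + 1), and for genotype at P1 from 0 to 1 with that measure, 1 with counts scaled to the reads of the cell alone and 3 with spike-in cells alone. With the log2 measure at P1, 3 genes differed between Slc6a3-high cells and cells with neither (5 by mean RPKM) and 3 between Gad2-high cells and cells with neither (6 by mean RPKM). On P90 plate 1 alone, 3 genes differed between Slc6a3-high cells and cells with neither. Without each P90 plate in turn, the counts were 6 to 6 for P90 against E13.5, 4 to 5 for Slc6a3-high against Gad2-high, 5 to 5 for Slc6a3-high against neither and 6 to 6 for Gad2-high against neither. No paired analysis was made, and replicate numbers only name cells. Each P90 plate held Slc6a3-high cells, Gad2-high cells and cells with neither, and class means per plate are given above without a test. The number of cells limits rare genes, as a share of 0 in a class of 26 cells allows up to 11.5%, while thinning the depth to 100000 reads moved none of the differences.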
